A study of Mus musculus with 4 samples.

Results

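Fibronectin, tenascin C and the matricellular proteins are secreted glycoproteins and proteoglycans of the extracellular matrix. The group examined here comprised *Fn1*, *Tnc*, *Vcan*, *Postn*, *Thbs1*, *Thbs2*, *Spp1*, *Sparc*, *Spock1* and *Ptx3*, which are 10 of the 46983 genes listed in each deposited table. They were selected by gene name, and each has a single entry in every table. RNA-seq was performed on larynx tissue dissected from E10.5 mouse embryos of 32 to 35 somites, in 2 *Shh*-/- pools and 2 WT pools of 3 larynxes each. The mutants carried the Shhtm1amc null allele, a germline allele that is kept on a Swiss Webster background, and the WT embryos were Swiss Webster. The series design calls the mutant pools *Shh*-/-, while the genotype label of both pools reads Shh+/-. The genotype of the series design is used here. Each pool mixes 3 embryos and all cell types of the dissected tissue, so that fewer cells of a type and less RNA per cell cannot be told apart in any value below.

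Fibronectin forms fibrils on which cells migrate and to which other matrix proteins attach, and it is bound by integrins. Matricellular proteins such as tenascin C, periostin, thrombospondins, osteopontin and SPARC do not mainly bear load but alter how cells adhere to the matrix and receive growth factors. Their genes are widely used as markers of mesenchyme, of neural crest derivatives and of epithelial-to-mesenchymal transition (EMT), the setting in which the study examined the larynx of embryos that lack the secreted signal SHH.

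Values are TPM as StringTie gives them, the share of a gene's transcripts in the library after scaling by transcript length, so levels can be compared between genes. Differences were tested with limma on log2(TPM + 1) over the 16972 genes whose mean over the 4 libraries reached 1 TPM, and are given as *Shh*-/- minus WT. A positive difference therefore means a higher level in the mutant, and the added 1 understates differences of genes at a few TPM. The aligned sequence was 1.37 gigabases in *Shh*-/- pool 1 and 2.84 to 3.13 gigabases in the other 3 libraries. The RNA integrity number was 8.0 and 7.7 in *Shh*-/- pools 1 and 2, and 7.7 and 9.0 in WT pools 4 and 6. *Shh* itself, over the whole gene, measured 10.4 and 10.8 TPM in the mutant and 23.7 and 42.1 TPM in WT (adjusted p = 0.0895, limma), and gene-level values do not separate the deleted part of the gene from the rest. The HH target *Ptch1*, the gene of the SHH receptor, stood at 12.9 and 13.8 TPM in the mutant and 57.8 and 55.1 TPM in WT (adjusted p = 0.0319, limma). All 5 genes of a list of HH targets were lower, 2 of them past the threshold. The *Shh*-/- pools were unequal in HH targets, with *Foxf1*, a transcription factor of foregut mesenchyme, at 0.848 TPM in pool 1 and 9.57 TPM in pool 2 against 72.3 and 64.6 TPM in WT.

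The promoters of 4 of the genes are shown because these genes had large differences between the genotypes, upward for *Ptx3*, *Postn* and *Spock1* and downward for *Vcan*. Each line holds the 250 bases before the RefSeq start nearest to the start of the gene in the deposited tables, on the strand of the gene, from RefSeq on GRCm38.p6 (the mm10 assembly). Capitals mark matches to the TATA box TATAAA, searched on the strand shown. They also mark matches on either strand to TGANTCA, a loose form of the AP-1 motif in which N is any base. The same holds for CCACCC, which is contained in the GLI motif GACCACCCA. CAGACA, which contains the SMAD box, was also searched on both strands.
*Ptx3*, chr3:66219637-66219886, + strand: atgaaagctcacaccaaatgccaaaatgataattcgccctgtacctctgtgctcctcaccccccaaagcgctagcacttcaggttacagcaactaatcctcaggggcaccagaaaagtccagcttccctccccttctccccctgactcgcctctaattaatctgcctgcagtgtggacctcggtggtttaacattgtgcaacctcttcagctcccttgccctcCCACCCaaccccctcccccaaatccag
*Postn*, chr3:54360857-54361106, + strand: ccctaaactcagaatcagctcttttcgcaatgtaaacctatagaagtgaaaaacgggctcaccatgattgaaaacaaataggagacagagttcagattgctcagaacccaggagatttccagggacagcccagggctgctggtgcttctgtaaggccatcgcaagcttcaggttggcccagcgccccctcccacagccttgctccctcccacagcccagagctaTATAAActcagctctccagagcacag
*Spock1*, chr13:57908333-57908582, − strand: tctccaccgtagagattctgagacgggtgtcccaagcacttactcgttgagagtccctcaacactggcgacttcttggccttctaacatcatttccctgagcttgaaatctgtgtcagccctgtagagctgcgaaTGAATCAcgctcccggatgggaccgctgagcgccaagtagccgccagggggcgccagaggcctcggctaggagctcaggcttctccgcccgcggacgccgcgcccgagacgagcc
*Vcan*, chr13:89742513-89742762, − strand: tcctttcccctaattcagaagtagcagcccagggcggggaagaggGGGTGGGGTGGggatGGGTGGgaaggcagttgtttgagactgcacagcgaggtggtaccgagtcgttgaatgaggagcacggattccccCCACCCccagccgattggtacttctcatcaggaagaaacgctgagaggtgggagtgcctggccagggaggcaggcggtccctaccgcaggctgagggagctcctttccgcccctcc

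The *Postn* promoter held a TATA box 26 bases before the start. The *Spock1* promoter held TGAATCA, a match to the loose AP-1 pattern, 115 bases before the start. *Ptx3* held 1 match to CCACCC and *Vcan* held 4. Promoter entries were found for 8 of the 10 genes, not for *Fn1* and *Thbs1*. In the promoter nearest the deposited start, 3 of the 8 held TATAAA, 3 held CCACCC, 3 held CAGACA and 1 held TGANTCA. A match was counted at any position, and those to TATAAA lay 26 (*Postn*), 126 (*Tnc*) and 211 (*Spp1*) bases before the start. Among 32851 promoter entries of the same length the shares were 7.59% for TATAAA, 28.1% for CCACCC, 17.1% for CAGACA and 6.75% for TGANTCA. The full GLI motif GACCACCCA was in none of the 8 and in 0.225% of all entries. These matches describe letters in a short window and were not measured as binding.

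In mean level 7 of the 10 genes lay above WT in the mutant (58.3% of all tested genes did) and 3 below. At an adjusted p under 0.05, 1 gene, *Ptx3*, was called, against 0.725% of the tested genes in either direction and 0.56% as higher. At an adjusted p under 0.10 there were 6 of the 10, against 5.06%, and 8 of the 10 had an unadjusted p under 0.05 in limma, against 24.8%. All 10 genes cleared the filter on low TPM. The mutant and WT pools did not overlap for any of them (60.7% of all tested genes), with 7 above (38.0%) and 3 below (22.7%). The median log2 difference of the 10 genes was 0.76, against 0.08 for all tested genes. Because these genes were grouped with earlier results of the same libraries known, these counts describe the group and are not independent evidence of its direction. With 2 pools against 2, an exact permutation test of a single gene cannot give a p below 0.33, and the adjusted p values rest on the spread that limma shares between genes.

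**Figure D1:**
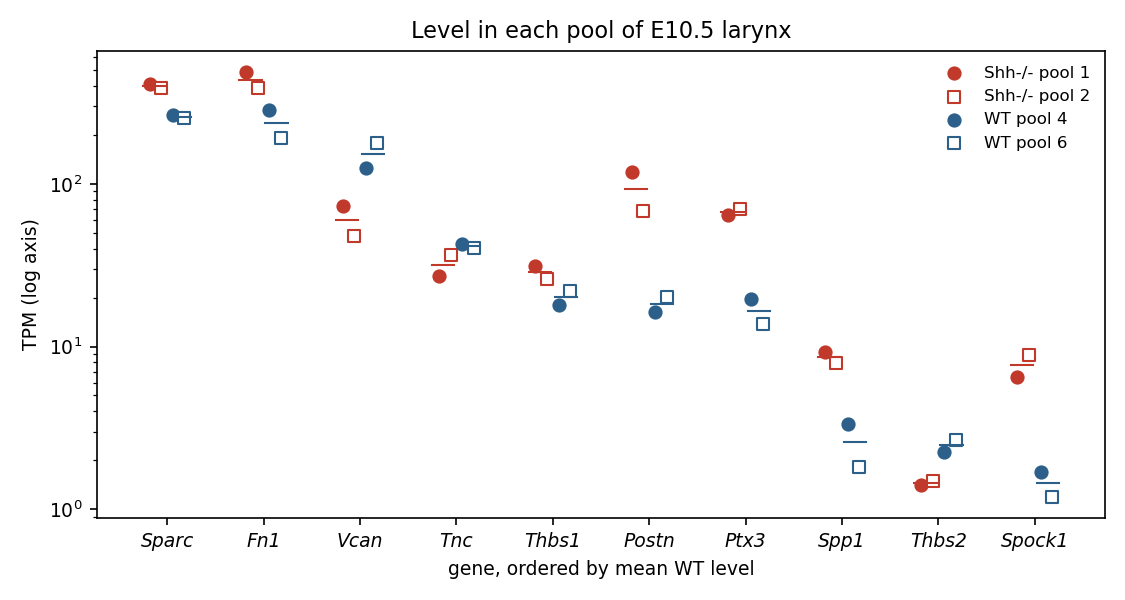
TPM (log axis) of the 10 genes in each of the 4 pools, ordered by mean WT level, with short lines for the group means. *Shh*-/- and WT points do not overlap for any gene, and *Postn*, *Ptx3* and *Spock1* show the widest separation upward and *Vcan* the widest downward.

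In WT larynx the genes spanned a wide range of levels. *Sparc* (259.3 ± 8.85 TPM, SD, n = 2) and *Fn1* (238.1 ± 65.5 TPM, SD, n = 2) were the most abundant and were not separated by their pools. *Vcan* followed at 152.3 ± 38.6 TPM and *Tnc* at 41.6 ± 1.68 TPM (SD, n = 2 each), each clear of its neighbors. *Thbs1*, *Postn* and *Ptx3* came next, with means of 20.0, 18.2 and 16.6 TPM and overlapping neighbors. *Spp1* and *Thbs2*, at 2.58 and 2.46 TPM, also overlapped, and *Spock1* was lowest at 1.45 TPM. In the *Shh*-/- pools *Fn1* and *Sparc* again led without being separated, but *Postn* moved from the sixth to the third place, *Ptx3* from the seventh to the fourth, and *Vcan* from the third to the fifth. The pools of *Postn* overlapped those of *Ptx3*, and those of *Ptx3* overlapped those of *Vcan*, so the order of these 3 in the mutant is not resolved. *Fn1* and *Sparc* together made up 73.1 and 74.5% of the summed TPM of the 10 genes in the mutant and 70.6 and 61.2% in WT.

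*Ptx3* encodes pentraxin 3, a secreted pattern recognition protein that also organizes hyaluronan-rich matrix. The gene (chromosome 3, 66219910 to 66225805) measured 64.0 and 69.9 TPM in the mutant and 19.5 and 13.7 TPM in WT. Both mutant pools were close to each other and well above both WT pools. *Ptx3* rose 4.03-fold in mean TPM, with a log2 difference of 1.97 (95% interval 1.47 to 2.46) and an adjusted p of 0.0422 (limma). This was the one call in the group, and it was lost when any single pool was left out. Over these 4 refits the log2 difference was 1.73 to 2.21 and the adjusted p 0.0983 to 0.148, while between 0 and 16 genes passed in the whole table. The call also depended on the filter, since without it no gene of 28524 passed (5011 had an unadjusted p under 0.05) and *Ptx3* had an adjusted p of 0.146. The gene *Veph1* on the opposite strand spans *Ptx3* and stayed between 0.631 and 0.884 TPM in the 4 pools.

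Among the other pentraxins, *Nptx1*, a neuronal pentraxin, measured 2.37 and 1.59 TPM in the mutant and 2.02 and 3.00 TPM in WT, with overlapping pools. *Nptxr*, the receptor of neuronal pentraxins, measured 2.96 and 3.04 TPM against 0.796 and 0.605 TPM (log2 difference 1.23, adjusted p = 0.0788, limma; *Nptxr* was chosen after its values were seen). *Ptx4* and *Apcs* were listed at 0 in every library.

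*Postn* encodes periostin, a fasciclin domain protein of cardiac cushions, perichondrium and periosteum that crosslinks collagen with other matrix proteins. The gene (chromosome 3, 54361109 to 54391037) measured 118.8 and 67.8 TPM in the mutant against 16.2 and 20.1 TPM in WT. It had the largest log2 difference of the 10 genes, 2.25 (95% interval 1.50 to 3.00, adjusted p = 0.0595, limma), and a ratio of means of 5.14. The mutant pools were 0.80 apart on the log2 scale, whereas the median gap between mutant pools over all tested genes was 0.19. *Postn* passed the threshold in 2 of the alternative settings, with FPKM in place of TPM (adjusted p = 0.0475) and when the libraries were corrected for transcript length and GC (log2 difference 2.43, adjusted p = 0.0424). With 36.3% GC in its longest transcript, *Postn* had the lowest GC content of the group, whose other members ran up to 53.5%, around a median of 49.6% for all tested genes. Its relative *Tgfbi*, which encodes a fasciclin domain protein named for its induction by TGFβ, was at 136.2 and 96.4 TPM in the mutant and 43.5 and 44.1 TPM in WT (log2 difference 1.37, adjusted p = 0.0602, limma). *Tgfbi* passed the threshold with FPKM in place of TPM.

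*Vcan* encodes versican, a large chondroitin sulfate proteoglycan that binds hyaluronan in loose embryonic mesenchyme. It was the clearest of the genes that were lower in the mutant. The gene (chromosome 13, 89655312 to 89742509) measured 72.8 and 47.8 TPM in the mutant and 125.1 and 179.6 TPM in WT, so that the WT mean was 2.52 times the mutant mean. The log2 difference was −1.33 (95% interval −2.02 to −0.64, adjusted p = 0.0962, limma) and lay between −1.63 and −1.03 when 1 pool at a time was left out. In both genotypes the pools were over 0.5 apart on the log2 scale. A processed pseudogene on the opposite strand within *Vcan*, *Gm16318*, measured 1.90 and 1.28 TPM in the mutant and 5.60 and 4.38 TPM in WT, and whether reads were shared between them was not tested. *Has2*, the hyaluronan synthase most used in embryonic mesenchyme, lay in the same direction at 14.5 and 20.1 TPM against 29.5 and 43.3 TPM (log2 difference −1.02, adjusted p = 0.119, limma). *Has3* had a log2 difference of 0.39 and *Has1* was under the filter.

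Other lecticans were scarce. *Ncan*, the neurocan gene, had the largest positive difference of the lectican and link protein list at 1.42 and 1.53 TPM against 0.599 and 0.794 TPM (log2 difference 0.55, adjusted p = 0.217, limma). *Acan* and *Bcan* stayed below 1 TPM in all pools. *Hapln3*, one of the link proteins that stabilize lectican binding to hyaluronan, had a log2 difference of −1.06 and *Hapln1* one of 0.06 (adjusted p = 0.0929 and 0.783, limma; both were chosen after their values were seen).

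*Fn1* (chromosome 1, 71585520 to 71653200), the fibronectin gene, measured 488.2 and 387.9 TPM in the mutant and 284.5 and 191.8 TPM in WT. The mutant pools were higher, but the WT pools were 0.57 apart on the log2 scale, beside a difference of 0.89 between genotypes (95% interval 0.32 to 1.47, adjusted p = 0.122, limma). In each deposited table *Fn1* has a single value, although 17 transcripts are annotated in GENCODE M21, so the alternatively spliced forms of fibronectin were not resolved. The ratio of *Fn1* to *Vcan* was 6.70 and 8.11 in the mutant and 2.27 and 1.07 in WT.

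The receptors through which cells bind these proteins included genes on both sides of 0. Of 14 listed integrin and other receptor genes, 13 were tested, of which 8 were higher and 5 lower, and none passed the threshold. An unadjusted p under 0.05 in limma was found for 6 of the 13, against 24.8% of all tested genes. *Itgb5*, an integrin subunit that pairs with αv, had the largest difference of the list, at 72.4 and 63.8 TPM in the mutant and 37.4 and 34.7 TPM in WT (log2 difference 0.90, adjusted p = 0.0602, limma). *Itga4*, whose product binds fibronectin as part of α4β1, had the lowest at 9.40 and 8.43 TPM against 13.4 and 21.0 TPM (log2 difference −0.84, adjusted p = 0.141, limma). For the classical fibronectin receptor α5β1, *Itga5* measured 38.9 and 34.2 TPM against 25.4 and 20.2 TPM, and *Itgb1* measured 327.7 and 351.4 TPM against 326.9 and 362.3 TPM (log2 differences 0.66 and −0.02, adjusted p = 0.118 and 0.913, limma; both were chosen after their values were seen). The pools of *Itgb1* overlapped and those of *Itga5* did not.

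*Sparc* (chromosome 11, 55394500 to 55420080) encodes a collagen-binding matricellular protein. It was the most uniform of the 10 genes between pools, with 411.9 and 390.6 TPM in the mutant and 265.6 and 253.0 TPM in WT. The pools of 1 genotype were at most 0.08 apart on the log2 scale. The log2 difference was 0.63 (95% interval 0.40 to 0.86, adjusted p = 0.0633, limma), a ratio of means of 1.55.

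*Spock1*, the gene of testican 1, a proteoglycan of the SPARC family known mainly from the nervous system (chromosome 13, 57421195 to 57908314), measured 6.49 and 8.81 TPM in the mutant and 1.70 and 1.19 TPM in WT. It had the highest ratio of means in the group, 5.29, although its log2 difference of 1.82 (95% interval 1.21 to 2.43, adjusted p = 0.0595, limma) ranked below those of *Postn* and *Ptx3*. At this low level the added 1 weighs on the scale, and with a pseudocount of 0.1 the log2 difference was 2.33. The mean read depth over *Spock1* transcripts was 1.77 to 13.7 reads per base across the 4 libraries.

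The SPARC family as a whole did not lie to one side. Of its 8 genes, all tested, 3 were higher and 5 lower (median log2 difference −0.19), and none passed the threshold. An unadjusted p under 0.05 in limma was found for 5 of the 8, against 24.8% of all tested genes. *Smoc2*, a secreted calcium-binding family member, had the lowest difference with 12.8 and 13.0 TPM in the mutant and 25.1 and 19.3 TPM in WT (log2 difference −0.73, adjusted p = 0.113, limma). *Spock2*, the testican 2 gene, measured 13.9 and 13.3 TPM against 6.97 and 7.40 TPM (log2 difference 0.84, adjusted p = 0.0808, limma; chosen after its values were seen).

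*Spp1* encodes osteopontin, an integrin-binding phosphoprotein of bone matrix, epithelia and macrophages. The gene (chromosome 5, 104435118 to 104441050) was low, at 9.31 and 7.87 TPM in the mutant and 3.34 and 1.82 TPM in WT. The pools did not overlap, and the log2 difference was 1.45 (95% interval 0.76 to 2.14, adjusted p = 0.0887, limma). The WT pools were 0.62 apart on the log2 scale, the widest gap between WT pools in the group, and 2.71 to 12.3 reads per base covered the gene. Macrophage markers were scarce in every library. Of 12 such markers 9 were tested, of which 7 were higher, 1 was lower and 1, *Csf1r*, had a difference of 0.00. None passed the threshold or an unadjusted p of 0.05 in limma. Their summed level was 27.4 to 37.3 TPM in the mutant and 21.6 to 26.7 TPM in WT, with *Ptprc*, *Adgre1* and *Fcgr1* below 1 TPM in all 4 pools (these 3 and *Csf1r* were chosen after their values were seen). The most abundant, *Cd68* and *C1qb*, had log2 differences of 0.37 and 0.52 (adjusted p = 0.41 and 0.31, limma). The part of macrophages in the level of *Spp1* was not tested. The other genes of the osteopontin family (*Ibsp*, *Dmp1*, *Mepe*, *Dspp*) were below 1 TPM in every library.

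The thrombospondins *Thbs1* and *Thbs2*, which bind cells and in the case of *Thbs1* can activate latent TGFβ, lay in opposite directions. *Thbs1* (chromosome 2, 118111876 to 118127133) measured 31.2 and 26.0 TPM in the mutant and 18.0 and 22.1 TPM in WT (log2 difference 0.49, 95% interval 0.06 to 0.93, adjusted p = 0.17, limma). *Thbs2* (chromosome 17, 14665500 to 14694262) measured 1.40 and 1.48 TPM against 2.25 and 2.67 TPM (log2 difference −0.50, 95% interval −1.03 to 0.03, adjusted p = 0.22, limma). *Thbs1* therefore exceeded *Thbs2* by 22.3 and 17.5 times in the mutant and by 7.97 and 8.26 times in WT. *Thbs2* was the most thinly read gene of the group, with 0.923 reads per base in *Shh*-/- pool 1 and 2.31 to 3.97 in the other pools. With the correction for length and GC the log2 difference of *Thbs1* was 0.29. *Thbs3*, a pentameric thrombospondin, had the largest difference of the family list, 0.69 (adjusted p = 0.296, limma), but its 35.6 TPM in *Shh*-/- pool 1 stood against 16.7 TPM in pool 2 and 15.9 and 13.7 TPM in WT.

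*Tnc*, which encodes tenascin C, an anti-adhesive glycoprotein of migrating mesenchyme and crest cells (chromosome 4, 63959785 to 64047015), had the smallest difference of the group. It measured 27.1 and 36.5 TPM in the mutant and 42.8 and 40.4 TPM in WT. The log2 difference was −0.39 (95% interval −0.83 to 0.06, adjusted p = 0.239, limma). Without *Shh*-/- pool 1 it was −0.18 and without pool 2 −0.60, so the size rests on which mutant pool is used, and with the correction for length and GC it was −0.65. A noncoding gene on the opposite strand, *8030451A03Rik*, overlaps *Tnc* over 67162 bases and measured 0.116 and 0.711 TPM in the mutant and 3.04 and 2.33 TPM in WT, and whether reads were shared between the strands was not tested. *Tnc* was the one tenascin with a mean of at least 1 TPM, and *Tnn*, *Tnr* and *Tnxb* were all below 0.1 TPM.

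**Figure D2:**
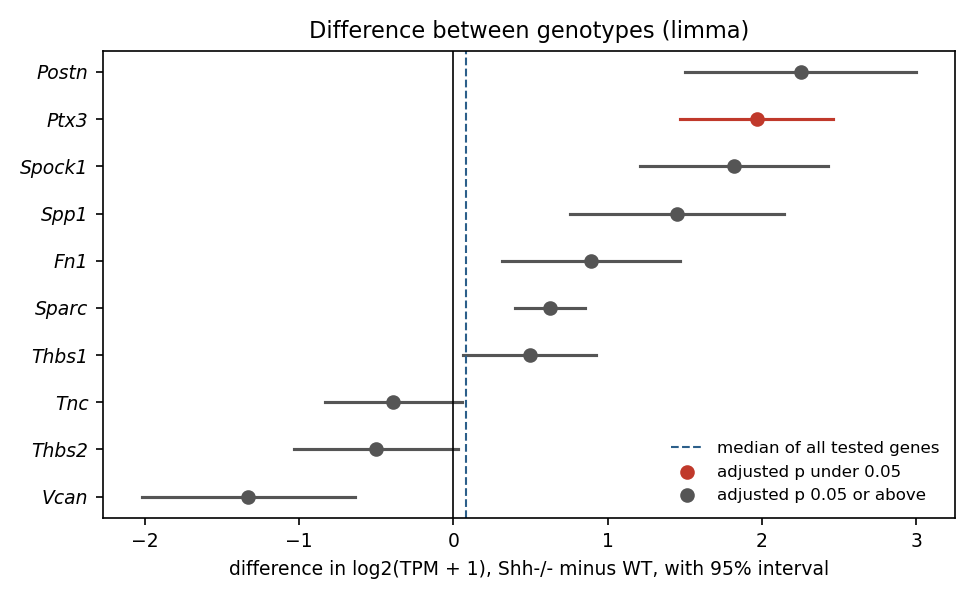
Difference in log2(TPM + 1) between *Shh*-/- and WT pools for the 10 genes, with 95% intervals from limma and a dashed line at the median of all tested genes (0.08). Intervals of 8 genes exclude 0 (24.8% of all tested genes had an unadjusted p under 0.05), those of *Tnc* and *Thbs2* include it, and the red point, *Ptx3*, is the one gene with an adjusted p under 0.05.

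Relatives of the 10 genes were examined from lists of their families and receptors. Of 53 relatives, 36 had a mean TPM of at least 1, of which 21 were higher and 15 lower in the mutant, with a median log2 difference of 0.18. None passed an adjusted p of 0.05 in limma (0.725% of all tested genes did), and 16 of the 36 had an unadjusted p under 0.05, which 24.8% of all tested genes had. The pools did not overlap for 28 of the 36 (60.7% of all tested genes), with 18 above (38.0%) and 10 below (22.7%). In the CCN family of matricellular proteins 3 of 5 tested genes were higher. *Ccn3*, listed under its older symbol *Nov* and encoding a regulator of adhesion and differentiation, measured 3.32 and 4.46 TPM in the mutant and 1.17 and 1.23 TPM in WT (log2 difference 1.14, adjusted p = 0.0925, limma), and *Ccn6* had the lowest difference at −0.21 (adjusted p = 0.561, limma).

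**Figure D3:**
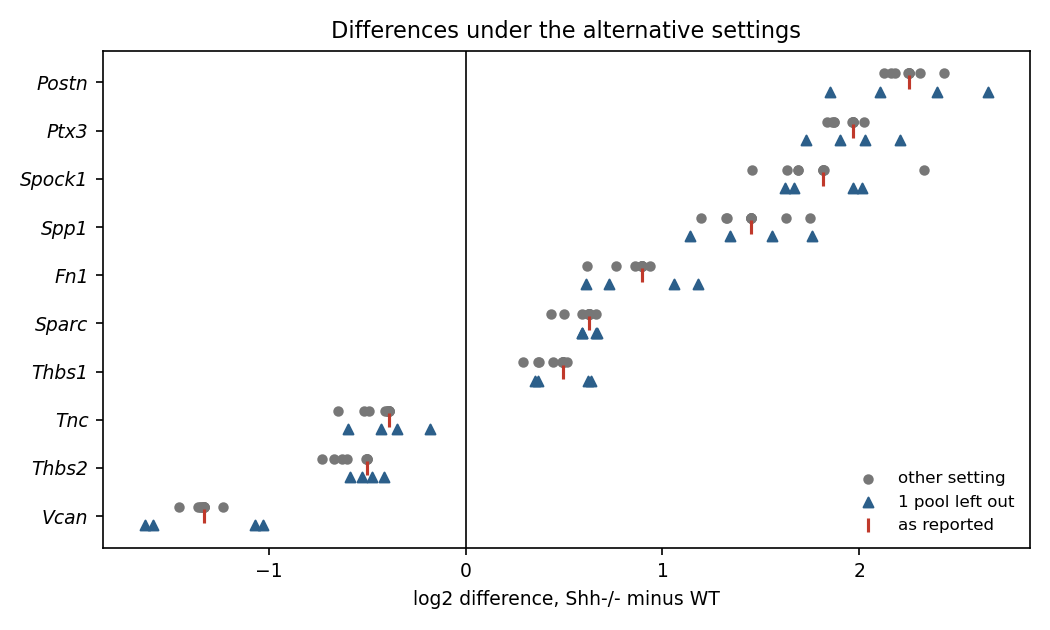
Log2 difference (*Shh*-/- minus WT) of the 10 genes as reported (red lines), under the other settings of the fit (gray circles) and with 1 pool left out (blue triangles). No gene crosses 0, and the triangles of *Postn*, *Spp1* and *Vcan* spread widely while those of *Sparc* lie close together.

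Markers of the cell types that the dissected tissue could contain were summed per pool. Neuron markers differed most, with 822.6 and 918.9 TPM over 12 genes in the mutant and 218.9 and 150.4 TPM in WT. All 12 were higher (58.3% of all tested genes were) and 7 passed the threshold (0.56% passed as higher). *Tubb3* (neuronal tubulin) was among the 7, while *Nefm* (neurofilament) had an adjusted p of 0.0595 (limma). For heart and striated muscle 9 of 10 tested markers were higher and 2 passed. Their sums were 167.4 and 234.7 TPM against 74.4 and 78.8 TPM, with *Nppa* listed at 0 in all pools. The most abundant of them, *Actc1* (cardiac actin), measured 83.6 and 99.9 TPM against 32.6 and 41.0 TPM (adjusted p = 0.0592, limma). Next in abundance, *Myl7* (atrial myosin light chain) had a log2 difference of 1.93 (adjusted p = 0.126, limma). The 1 lower marker of this list, *Nkx2-5*, measured 5.97 and 4.73 TPM in the mutant and 18.5 and 13.6 TPM in WT. Its log2 difference was −1.415 (adjusted p = 0.0697, limma; chosen after its values were seen). All 7 tested markers of neural crest and Schwann precursors were higher, with sums of 151.6 and 137.7 TPM against 98.6 and 79.5 TPM. None of the 7 passed the threshold, and 4 had an unadjusted p under 0.05 in limma, against 24.8% of all tested genes. The most abundant of the 7, *Ednrb* and *Sox10*, had log2 differences of 0.32 and 1.05 (adjusted p = 0.231 and 0.109, limma). Endothelium markers summed to 464.5 and 547.8 TPM against 319.1 and 298.2 TPM, and 9 of 10 were higher with 1 past the threshold. The leading 2, *Egfl7* and *Cdh5*, had log2 differences of 0.66 and 0.59 (adjusted p = 0.114 and 0.0895, limma).

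The mesenchyme list held genes that differed in opposite directions. Of its 12 genes 7 were higher and 5 lower, with sums of 837.7 and 762.2 TPM in the mutant and 586.7 and 550.7 TPM in WT. *Col1a2*, a fibrillar collagen gene, and *Prrx1*, a homeobox gene of limb and craniofacial mesenchyme, had log2 differences of 0.97 and 1.14 (adjusted p = 0.0602 and 0.0715, limma), in contrast to *Foxf1* at −3.97 (adjusted p = 0.0976, limma; chosen after its values were seen). The genes that passed were *Twist1*, a factor of crest and limb mesenchyme, as higher (log2 difference 1.57, adjusted p = 0.0323, limma) and *Foxf2*, a foregut mesenchyme factor, as lower (log2 difference −3.67, adjusted p = 0.0383, limma; both were chosen after their values were seen). Epithelium markers also differed in opposite directions, and summed to 762.9 and 660.2 TPM against 692.5 and 700.9 TPM. Of these, 6 of 11 were higher and none passed (4 had an unadjusted p under 0.05 in limma, against 24.8% of all tested genes). Both mutant pools lay above both WT pools for 4 of them (38.0% of all tested genes) and below for 4 (22.7%), and 3 overlapped. The most abundant, *Cldn6* and *Krt18*, had log2 differences of 0.00 and 0.18. *Foxa2* and *Nkx2-1* had −2.13 and −1.64 (adjusted p = 0.0602 and 0.0715, limma), while *Sox2* had 0.04 with overlapping pools (adjusted p = 0.91, limma). These 3 genes were chosen after their values were seen. Cartilage precursor markers summed to 349.4 and 249.3 TPM against 226.0 and 224.1 TPM, with *Matn1* at 0. Of these, 4 were tested, all 4 had a positive difference and none passed in limma (1 had an unadjusted p under 0.05). The median log2 difference of the 4 was 0.03, against 0.08 for all tested genes, and the pools overlapped for 3 of them. The most abundant of them, *Col2a1* and *Col9a1*, had log2 differences of 0.60 and 0.03 (adjusted p = 0.189 and 0.931, limma). Erythroid markers had a negative log2 difference in all 9 genes, with none past the threshold or an unadjusted p of 0.05 in limma. The pools overlapped for 6 of the 9, and the mutant pools lay below WT for 3 (22.7% of all tested genes). The 9 genes summed to 11810 and 17910 TPM in the mutant and 16190 and 18340 TPM in WT. *Hbb-y* and *Hbb-bh1*, embryonic globin genes, had log2 differences of −0.22 and −0.28 (adjusted p = 0.571 and 0.452, limma). The part of any of these cell types in the levels of the 10 genes was not tested.

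**Figure D4:**
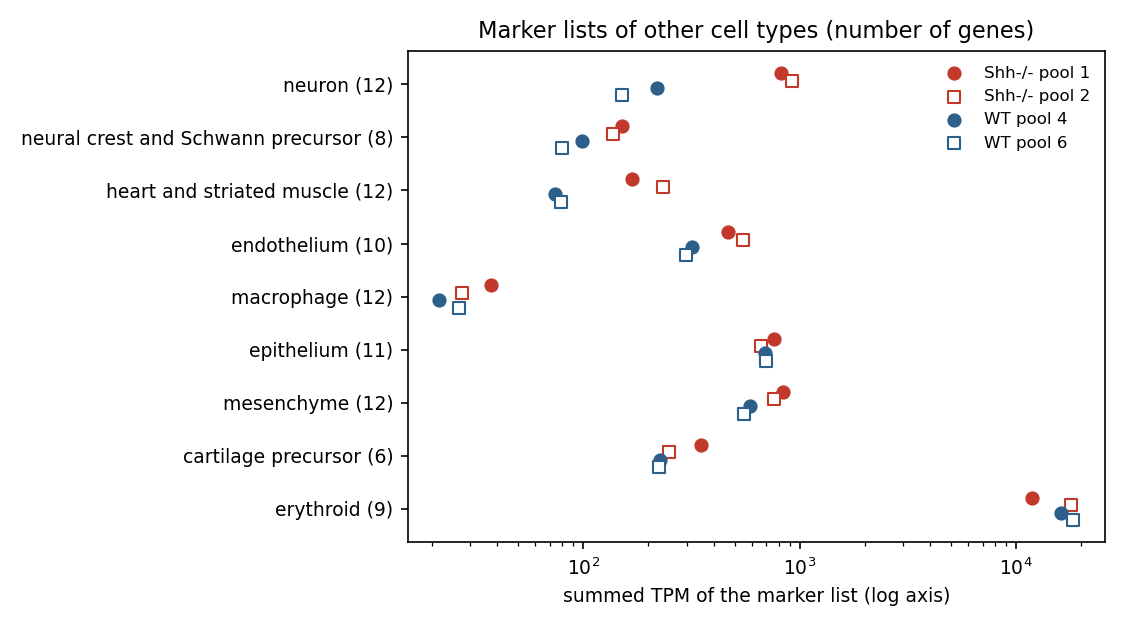
Summed TPM (log axis) of each marker list in the 4 pools, with the number of genes in parentheses. Neuron, crest, muscle, endothelium, mesenchyme, cartilage precursor and, narrowly, macrophage sums lie higher in both *Shh*-/- pools than in both WT pools. The epithelium and erythroid sums overlap between the genotypes, although single epithelium markers differ in opposite directions.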

How the data were processed

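RNA-seq of 4 libraries was used (2 *Shh*-/- pools and 2 WT pools of 3 larynxes). The authors prepared poly(A)-selected, directional, single-end libraries, aligned them to mm10 with HISAT2 2.1.0 and assembled genes with StringTie 1.3.6. The annotation release and the strand setting are not given in the sources used here. The deposited tables list coverage (mean read depth per base, not normalized), FPKM and TPM for each gene, as StringTie wrote them, and no read counts were used. The authors' TPM values sum to 1000000 per library. Aligned bases were taken from the ratio of deposited coverage to FPKM in genes with 1 annotated transcript, and read depth as FPKM times aligned gigabases. No read counts being at hand, no counting interval was computed. All mitochondrially encoded genes are listed at 0, so a 0 can be a failed estimate.

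TPM was summed per gene ID, filtered at a mean of 1, transformed as log2(TPM + 1) and fitted with limma 3.58.1 (R 4.3.3; eBayes with trend) without covariates, with Benjamini-Hochberg adjustment over 16972 genes and a threshold of 0.05. Intervals are 95%. The fit was tested on simulated data. GENCODE M21 (GRCm38) gave transcript length and GC content, for 46488 of 46983 gene IDs. The p-values measure the spread between these pools, and the labels tie no pool to a litter. The genes, lists and tests were chosen with earlier results of these data known. Named relatives were those past the threshold and, per list, the largest and lowest difference. Named markers were the 2 most abundant per list. Others are marked as chosen after their values were seen, which also holds for *Foxf1* at its first mention, for overlapping genes and for genes named as at 0 or under the filter. Alternatives were another pseudocount, other filters, normalizations, units, variance models and thresholds, a correction for GC content and length (natural splines, 5 degrees of freedom each), and leaving out each pool.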

Additional observations from a re-analysis of the deposited data

How the results depend on the processing

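Under 10 alternative settings of the fit and with each pool left out in turn, none of the 10 genes changed direction. Of 137 refitted differences, 129 stayed on the same side of the threshold, 6 (all *Ptx3*) lost it and 2 (both *Postn*) gained it. The plot of alternative settings shows these values. The number of the 10 genes called was 1 as reported, 0 without the filter on TPM or with eBayes without trend (*Ptx3* adjusted p = 0.0535), 2 with FPKM or with the correction for length and GC, 6 at an adjusted p under 0.10, and 0 in every fit that left out a pool. No relative was called as reported, but 1 was with FPKM and 7 at an adjusted p under 0.10. The median log2 difference of the 10 genes was 0.63 after median centring, 0.86 with FPKM (9 genes tested), 0.53 with the correction for length and GC, and 0.62 to 0.92 with 1 pool left out. Median centring removed a shift of 0.13 between the genotypes' library medians. Among all tested genes 123 were called (95 higher, 28 lower), 69 with a pseudocount of 0.1, 0 without the filter, 858 at an adjusted p under 0.10, and 0 to 16 with 1 pool left out. The split was 63 higher and 32 lower with the correction for length and GC, and it turned to 4 higher and 12 lower without WT pool 6. The cause of these changes was not tested, and neither was any part of the higher RNA integrity number of WT pool 6. A fit without 1 pool assumes that the lone pool varies like the other genotype. No paired analysis was possible because the groups share no replicate number in the labels.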
